A study of Mus musculus with 2 samples.

Results

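The 31 genes described here belong to the unfolded protein response and the integrated stress response, and the rule that names them goes by known roles in these pathways and uses no measured value, although it was written with earlier results of these data known. They stand among 24776 gene names on the array that could be found in RefSeq, of which 15680 were measured on both arrays. All 31 had at least 1 probe well above background on both arrays. The samples were monocytes of the spleen of ICR mice, an outbred stock, sorted by flow cytometry on the surface antigens CD11b and Ly6C at 8 weeks after surgery. One group had been 5/6 nephrectomized, surgery that leaves a small remnant of kidney as a model of chronic kidney disease, and the other was sham-operated. Each group is 1 RNA sample on 1 array (Agilent, 1 colour, Cy3). The age and sex of the mice, how many were pooled, and any other treatment are not given in the sources used here.

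Proteins that enter the secretory pathway fold in the endoplasmic reticulum (ER). When unfolded proteins build up there, the membrane sensors IRE1, PERK and ATF6 start the unfolded protein response, in which XBP1 and ATF6 switch on chaperones, folding enzymes and the machinery of ER-associated degradation. PERK also phosphorylates the translation factor eIF2 alpha, as do kinases that sense amino acid shortage, viral RNA or lack of heme, and the translation of ATF4 that follows is the core of the integrated stress response. ATF4 in turn drives genes of amino acid synthesis, one-carbon metabolism and feedback control. In macrophages and monocytes these pathways are known for their links to secretion and inflammation.

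The 9 ATF4 targets among the 31 genes were on balance higher in the 5/6 nephrectomized sample. Most of the ER chaperones were close to the rest of the genes or slightly lower. The values are differences in log2 signal, 5/6 nephrectomized minus sham, after each array was scaled to its own 75th percentile, so that 1 stands for a 2-fold higher signal. The median difference of the 9 ATF4 targets was 0.95 and that of the 11 ER chaperones and folding enzymes was -0.27, against -0.12 for all 15680 genes measured on both arrays. The gap between the medians of these groups was 1.23 in log2. Outside the 31 genes, 20 other measured ATF4 targets had a median of -0.09, so the higher median was not seen there. Over all 31 genes the median was 0.05, and 6 were at least 2-fold higher (Nupr1, Chac1, Phgdh, Herpud1, Mthfd2 and Creld2) and 1 was at least 2-fold lower (Sesn2). Among all measured genes 12.3% were higher by 2-fold or more and 10.9% were lower by as much. The 6 of 31 higher genes lie somewhat above that share and the 1 of 31 lower gene below it. Since each group has 1 array, no spread between animals is known and nothing was tested.

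**Figure D1:**
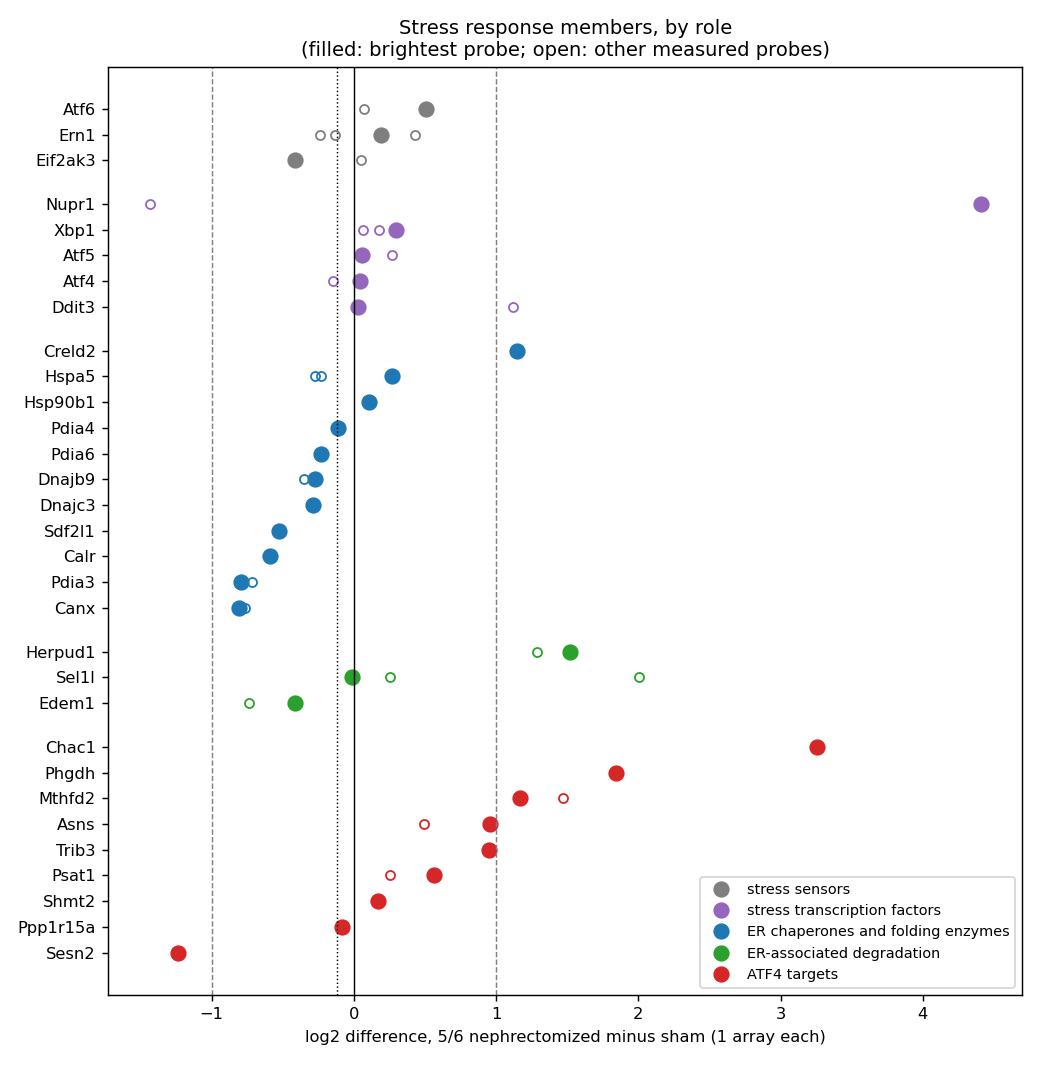
Log2 difference in signal (x axis, 5/6 nephrectomized minus sham, 1 array each) for the 31 genes, grouped by role, with filled points for the brightest measured probe of each gene and open points for its other measured probes. Dashed lines mark 2-fold, the dotted line the median of all measured genes (-0.12), and the ATF4 targets at the bottom spread from Chac1 at 3.26 to Sesn2 at -1.24, while 10 of the 11 chaperones and folding enzymes stay inside the 2-fold lines.

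Some properties of the arrays touch all of these values. The 5/6 nephrectomized array had 67.0% of 59305 non-control spots well above background and the sham array 63.0%, and both lay on 1 slide and went through 1 scan, per the file headers. The direction of small differences depends on the scaling, since the median of all genes was -0.12 in the main values, -0.27 when arrays were scaled to their medians and 0.26 when they were scaled to the spike-in controls. The share of higher genes among those at least 2-fold apart was 52.9% in the main values, 40.9% with the medians and 77.2% with the spike-in controls. Each probe of the 31 genes was printed as 1 spot. Among 283 probes printed many times over, the SD of a single-spot difference was 0.059 in log2, which covers the noise of the spot alone and leaves out labelling, sorting and the animals. These probes had a median intensity of 18958 on the 5/6 nephrectomized array, brighter than most probes of the 31 genes. The noise of dimmer spots may differ.

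The labelled cell type was checked against its markers. All 8 monocyte markers were measured on both arrays, with 2 at least 2-fold higher, 2 at least 2-fold lower and 4 between. Among the 4 was Itgam, which encodes CD11b, at intensities of 31995 on the 5/6 nephrectomized array and 33016 on the sham array. After scaling Itgam differed by -0.35, and its other probe by -1.18. Csf1r read 72856 on the 5/6 nephrectomized array and 70611 on the sham array, a difference of -0.26. The rest of the 4 were Ccr2 at -0.89 and Lyz2 at -0.52, whose other probe was at -1.48. The sort antigen gene Ly6c1 read 210831 on the 5/6 nephrectomized array and 43112 on the sham array, a difference of 1.98, and its near-identical neighbour Ly6c2 also differed by 1.98. The chemokine receptor gene Cx3cr1 read 1206 on the 5/6 nephrectomized array and 18406 on the sham array, a difference of -4.24, and Cd68 differed by -1.42. Markers of other cells differed in both directions. Of 10 T cell markers 7 were at least 2-fold higher and 1 more, Cd8a, was detected in the 5/6 nephrectomized sample only. Cd4 was at 0.87, and Cd247 ran the other way at -0.63. The summed intensity of the list was 34362 on the 5/6 nephrectomized array and 3132 on the sham array. Of 8 NK cell markers 4 were at least 2-fold higher and the other 4 passed background in the 5/6 nephrectomized sample only, with sums of 40969 on the 5/6 nephrectomized array and 334.2 on the sham array. Plasma cells, which run a constant unfolded protein response to secrete antibody, had 2 of 7 markers at least 2-fold higher, 1 lower (Sdc1) and 4 above background on the 5/6 nephrectomized array only, with sums of 41489 on the 5/6 nephrectomized array and 2146 on the sham array. Among these 4, Jchain read 29381 on the 5/6 nephrectomized array and 7.89 on the sham array, where it was not well above background. In such bulk RNA a different share of cells of a type and a different amount of RNA per cell cannot be told apart, and the part of these other cells in the values below was not tested.

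The 3 sensors and most of the transcription factors differed little. Ern1, which encodes the kinase and endoribonuclease IRE1 alpha that splices Xbp1, read 3026 on the 5/6 nephrectomized array and 2136 on the sham array, a difference of 0.19 after scaling. For Eif2ak3, which encodes PERK, the intensities were 525.3 on the 5/6 nephrectomized array and 565.2 on the sham array, a difference of -0.41. The membrane-bound factor gene Atf6 read 851.1 on the 5/6 nephrectomized array and 483.9 on the sham array, a difference of 0.51. None of these 3 was 2-fold apart, and the probes of Ern1 and Eif2ak3 differed in sign among themselves, from -0.24 to 0.43 for the 4 measured probes of Ern1 and from -0.41 to 0.05 for the pair of Eif2ak3.

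Among the transcription factors, the transcript of Atf4 itself was nearly level. It read 43295 on the 5/6 nephrectomized array and 33905 on the sham array, a difference of 0.04, with its other probe at -0.14. ATF4 is known to be controlled mainly by translation of its mRNA, which an array does not measure. Xbp1, whose mRNA is spliced by IRE1 into the active form, read 23312 on the 5/6 nephrectomized array and 15321 on the sham array, a difference of 0.30, and its 3 probes lay between 0.06 and 0.30. Splice forms of Xbp1 were not analysed here. Atf5, a relative of ATF4 and one of its targets, had intensities of 8182 on the 5/6 nephrectomized array and 6362 on the sham array, a difference of 0.05. The sign of Atf4, Atf5 and Ddit3 turned with median scaling, and that of Atf4 also with the mean over its probes.

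Ddit3 and Nupr1 depended on the probe. Ddit3 encodes CHOP, the factor linked to cell death under lasting ER stress. Its brightest probe (chromosome 10, 126731579 to 126731638, mouse build mm9), designed on an Ensembl transcript, read 2362 on the 5/6 nephrectomized array and 1870 on the sham array, a difference of 0.03. The other probe (126732518 to 126732821), designed on the RefSeq mRNA, read 855.0 on the 5/6 nephrectomized array and 318.7 on the sham array, a difference of 1.12. So the probe for the RefSeq mRNA was past 2-fold and the brighter probe was level. Nupr1, a small stress-induced nuclear protein, had the largest difference of the 31 genes. The probe on its RefSeq mRNA (chromosome 7, 133766978 to 133767037, mm9) read 11219 on the 5/6 nephrectomized array and 426.8 on the sham array, a 21.2-fold higher signal or 4.41 in log2, and 1.28% of all measured genes had a larger difference. A much dimmer probe on an Ensembl transcript (133769416 to 133769475) went the other way, with 25.3 on the 5/6 nephrectomized array and 55.1 on the sham array, a difference of -1.43. Both probes of Nupr1 were thus past 2-fold, in opposite directions, and the mean over the pair was 1.49.

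Of the ER chaperones and folding enzymes 1 of 11 was past 2-fold, and the group ran from -0.81 to 1.15. In the main values 3 of 11 were above 0 and 8 below, where 43.3% of all measured genes were above 0 and 8893 of 15680 were below. With spike-in scaling 7 of the 11 were above 0. That scaling moves every gene alike, and the median was then 0.26 for all genes and 0.10 for the chaperones. Hspa5, which encodes BiP, the major Hsp70 of the ER and the usual readout of the unfolded protein response, read 29403 on the 5/6 nephrectomized array and 19704 on the sham array, a difference of 0.27, while its other 2 probes were at -0.23 and -0.28. Hsp90b1, the ER form of Hsp90 also known as GRP94, read 40355 on the 5/6 nephrectomized array and 30196 on the sham array, a difference of 0.11. The arrays therefore showed no difference in these main ER chaperones larger than the disagreement among the probes of Hspa5.

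The co-chaperones Dnajb9 and Dnajc3 and the isomerases Pdia4 and Pdia6 were slightly lower or level. Pdia3, the other disulfide isomerase of the chaperone group, was lower at -0.80 and is given below. Dnajb9 and Dnajc3 encode J-domain partners of BiP, and they differed by -0.27 and -0.29. Pdia4 and Pdia6, protein disulfide isomerases, differed by -0.11 and -0.23. These 4 lay within 0.2 of the median of all genes. All 4 had the other sign with spike-in scaling, and Pdia6 also with quantile normalization. Sdf2l1, a component of ER chaperone complexes, read 1379 on the 5/6 nephrectomized array and 1604 on the sham array, a difference of -0.53.

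The calnexin and calreticulin cycle, which folds glycoproteins with the help of the isomerase ERp57, had 3 genes among the chaperones, all below 0, as were 8893 of 15680 genes, and none past 2-fold. These 3 were put together after their values were known. Canx, which encodes calnexin, read 16978 on the 5/6 nephrectomized array and 24043 on the sham array, a difference of -0.81, and its other probe agreed at -0.77. Pdia3, which encodes ERp57, had intensities of 2697 on the 5/6 nephrectomized array and 3779 on the sham array, a difference of -0.80, with its other probe at -0.72. Calr, which encodes calreticulin, read 11570 on the 5/6 nephrectomized array and 14090 on the sham array, a difference of -0.59. All 3 stayed below 0 in the main values and under the 9 alternative settings, from -0.96 to -0.21.

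Creld2, an ER-resident protein that is induced by ER stress, was the exception among the chaperone group. Its probe (chromosome 15, 88656997 to 88657056, mm9) read 24046 on the 5/6 nephrectomized array and 8770 on the sham array, a 2.21-fold higher signal or 1.15 in log2. Just under 10% of measured genes (9.85%) had a larger difference, and with median scaling Creld2 came to 0.998, just under 2-fold. In the same samples 2 of 7 plasma cell markers were at least 2-fold higher and Sdc1 was lower, at -2.10. The other 4 were above background on the 5/6 nephrectomized array only. The part of such cells in the Creld2 value was not tested.

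The genes of ER-associated degradation, which exports misfolded proteins for destruction by the proteasome, did not move as a block. Herpud1, an ER membrane protein of the degradation complex that is induced by ER stress, read 2410 on the 5/6 nephrectomized array and 677.4 on the sham array (chromosome 8, 96919117 to 96919176, mm9), a 2.87-fold higher signal or 1.52 in log2, and its other probe gave 1.29. Edem1, a lectin that hands misfolded glycoproteins to the degradation machinery, had intensities of 2473 on the 5/6 nephrectomized array and 2657 on the sham array, a difference of -0.41, with its other probe at -0.74. Sel1l, the adaptor of the ubiquitin ligase HRD1, read 8632 on the 5/6 nephrectomized array and 7043 on the sham array at its brightest probe, a difference of -0.01. A dimmer Sel1l probe designed on an Ensembl transcript read 475.3 on the 5/6 nephrectomized array and 95.7 on the sham array, a 4.01-fold higher signal, and the remaining probe gave 0.26 in log2. Herpud1 was thus the member of this group with both probes past 2-fold in one direction.

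**Figure D2:**
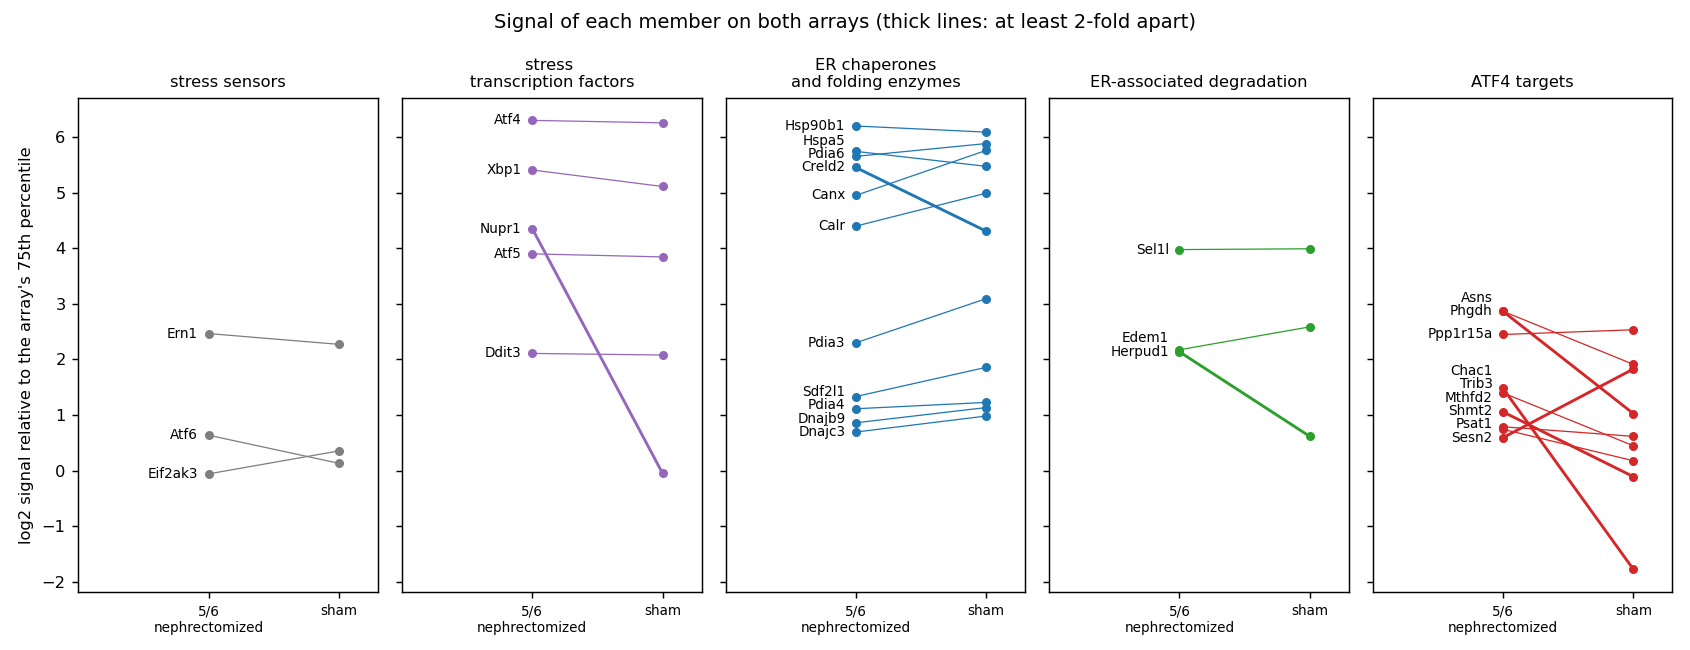
Signal of each of the 31 genes on the 5/6 nephrectomized array (left of each panel) and the sham array (right), in log2 relative to the array's 75th percentile, with a panel for each role and thick lines for genes at least 2-fold apart. Only the slope of a line is a comparison, since the height of a probe also depends on its sequence, and the steep lines are Nupr1, Creld2, Herpud1, Chac1, Phgdh, Mthfd2 and, in the other direction, Sesn2.

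Among ATF4 targets, 7 of 9 were above 0, against 43.3% of all measured genes, and 3 were at least 2-fold higher. The largest difference was that of Chac1, an enzyme that breaks down glutathione and is a sensitive readout of ATF4 activity. Its single probe (chromosome 2, 119179990 to 119180049, mm9) read 1526 on the 5/6 nephrectomized array and 129.0 on the sham array, a 9.56-fold higher signal or 3.26 in log2. With normexp background correction, which damps dim signals, the difference was 2.77. Of all measured genes 2.18% had a larger difference than Chac1. Trib3, a pseudokinase that feeds back on ATF4 and CHOP, read 1443 on the 5/6 nephrectomized array and 602.8 on the sham array, a difference of 0.95, just under 2-fold.

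All 5 genes of amino acid synthesis and one-carbon metabolism in this group lay above 0, with a median of 0.96, and this sub-group was formed after the values were known. Phgdh, the first enzyme of serine synthesis, read 3993 on the 5/6 nephrectomized array and 900.4 on the sham array (chromosome 3, 98117098 to 98117157, mm9), a 3.58-fold higher signal or 1.84 in log2. Psat1, the next enzyme of that route, had intensities of 916.5 on the 5/6 nephrectomized array and 499.9 on the sham array, a difference of 0.57. The transcripts of both enzymes were thus higher, Phgdh alone past 2-fold. Mthfd2, the mitochondrial folate enzyme of one-carbon metabolism, read 1139 on the 5/6 nephrectomized array and 409.8 on the sham array, a difference of 1.17, with its other probe at 1.47. Shmt2, which passes serine carbon into that pathway in mitochondria, differed by 0.17. Asns, asparagine synthetase, read 3998 on the 5/6 nephrectomized array and 1664 on the sham array, a difference of 0.96, and its dimmer probe gave 0.49. Asns lay close to the 2-fold line and passed it in 4 of 9 alternatives, those with quantile normalization, spike-in scaling, the 75th percentile over measured probes and the authors' value table.

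Ppp1r15a and Sesn2, the 2 targets below 0, are both regulators. Ppp1r15a, which encodes GADD34, the phosphatase subunit that removes the phosphate from eIF2 alpha, read 2992 on the 5/6 nephrectomized array and 2562 on the sham array, a difference of -0.08 that turned positive with spike-in scaling and with the 75th percentile over measured probes. Sesn2, a leucine sensor that restrains mTORC1 and is also a target of p53 and Nrf2, read 825.9 on the 5/6 nephrectomized array and 1571 on the sham array (chromosome 4, 132048858 to 132048917, mm9), a 2.36-fold lower signal or -1.24 in log2. With spike-in scaling Sesn2 was at -0.86, and then none of the 31 genes was 2-fold lower. Sesn2 therefore ran against the direction of the other 2-fold ATF4 targets.

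**Figure D3:**
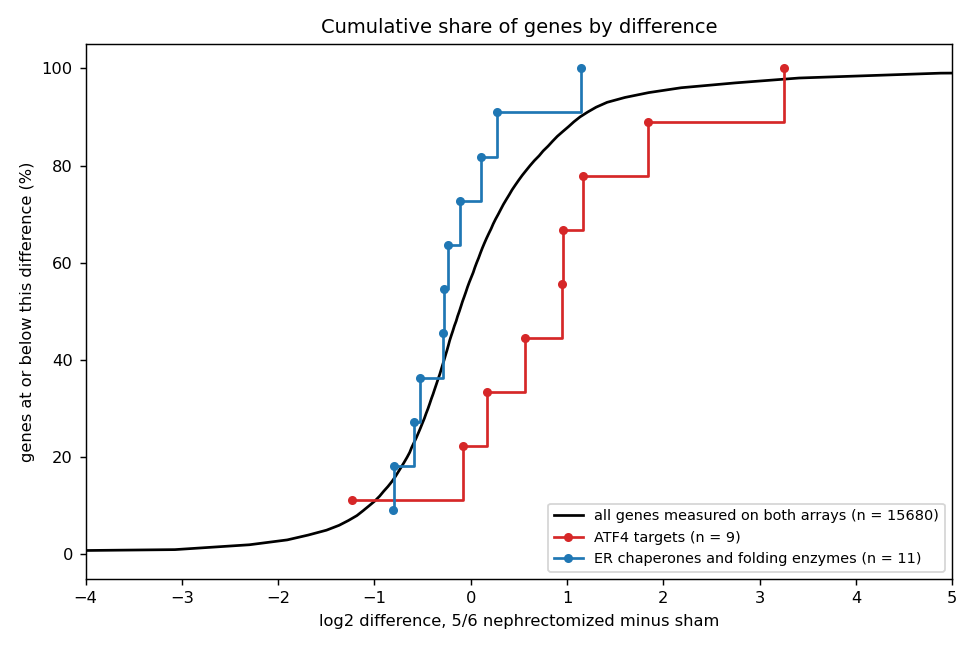
Cumulative share of genes (y axis, percent) at or below a given log2 difference (x axis, 5/6 nephrectomized minus sham) for the 9 ATF4 targets, the 11 ER chaperones and folding enzymes, and all 15680 genes measured on both arrays. The ATF4 target curve lies to the right of all genes over most of its course, with a median of 0.95, and the chaperone curve starts at -0.81, where 15.2% of all genes already lie below, and has a median of -0.27, against -0.12 for all genes.

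The promoters of the same genes differed in short motifs. The genes were chosen by known roles, ATF4 targets among them. A match to a known element of these pathways is therefore not independent of that choice. RefSeq windows on GRCm38.p6, from 250 bases before to 50 bases after the start, were available for 30 of the 31 genes (all but Atf6) and were searched on both strands. The ER stress response element (ERSE), which is CCAAT and CCACG with 9 bases of any kind between them, is bound by NF-Y together with ATF6 and was found in 7 of 11 chaperone and folding enzyme genes, in none of the 9 ATF4 target genes, and in 0.119% of all 32851 windows. The C/EBP-ATF element, TGATGNAA, is bound by ATF4 with a C/EBP partner. It was found in 3 of 9 ATF4 target genes (Chac1, Asns and Trib3), in Nupr1 and Herpud1, in no chaperone gene, and in 3.97% of all windows. A shorter form of ERSE called ERSE-II, which is ATTGG and CCACG with 1 base of any kind between them, was found in Herpud1 alone among these genes and in 0.0365% of all windows, and the element UPRE, TGACGTGG, in none of these genes and in 0.676% of all windows. No match overlapped a match of another motif in these genes.

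The genes with a match differed in their values. The 7 genes with an ERSE (Hspa5, Hsp90b1, Calr, Canx, Pdia6, Dnajc3 and Creld2) had a median difference of -0.23, with 3 above 0 and 1, Creld2, past 2-fold. The 5 genes with a C/EBP-ATF element were all above 0, from Trib3 at 0.95 to Nupr1 at 4.41, and 3 of them were past 2-fold. Of all measured genes 43.3% were above 0 and 12.3% were at least 2-fold higher. Among the ATF4 targets without a match in the window, Phgdh and Mthfd2 were at 1.84 and 1.17. The rest without a match were Psat1 at 0.57, Shmt2 at 0.17, Ppp1r15a at -0.08 and Sesn2 at -1.24. These motifs were counted with the differences already known, and a match is a string of letters, not a measured binding site.

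The 200 bases before the start are shown for the 4 genes in which the C/EBP-ATF element lies in this stretch, of which Nupr1, Chac1 and Herpud1 were past 2-fold and Asns lay close to it. In Trib3 the element lies 15 to 22 bases after the start and is not shown. Capitals mark the motif, read as TGATGNAA or as its reverse complement, and in Herpud1 also the fixed letters of ERSE-II. The strand of each gene is given after its position, and the sequences are RefSeq's, on build GRCm38.p6.
Chac1, chr2:119351042-119351241, plus strand, element 193 to 186 bases before the start: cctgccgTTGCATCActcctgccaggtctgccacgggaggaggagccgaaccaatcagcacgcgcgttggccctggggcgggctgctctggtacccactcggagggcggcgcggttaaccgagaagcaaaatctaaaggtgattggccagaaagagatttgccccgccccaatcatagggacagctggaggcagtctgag
Nupr1, chr7:126625471-126625670, minus strand, element 110 to 103 bases before the start: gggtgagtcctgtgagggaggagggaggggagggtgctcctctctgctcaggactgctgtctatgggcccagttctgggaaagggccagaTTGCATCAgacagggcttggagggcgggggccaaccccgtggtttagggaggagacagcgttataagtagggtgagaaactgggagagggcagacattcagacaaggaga
Herpud1, chr8:94386229-94386428, plus strand, C/EBP-ATF element 112 to 105 and ERSE-II 52 to 42 bases before the start: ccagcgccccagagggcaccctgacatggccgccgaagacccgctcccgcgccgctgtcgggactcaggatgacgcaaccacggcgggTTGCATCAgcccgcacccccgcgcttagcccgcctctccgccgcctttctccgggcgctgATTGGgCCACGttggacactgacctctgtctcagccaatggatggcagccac
Asns, chr6:7693210-7693409, minus strand, element 23 to 16 bases before the start: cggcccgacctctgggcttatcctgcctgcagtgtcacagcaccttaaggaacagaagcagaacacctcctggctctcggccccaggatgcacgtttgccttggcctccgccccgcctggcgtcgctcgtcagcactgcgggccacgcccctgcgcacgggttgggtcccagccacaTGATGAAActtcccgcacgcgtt

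The promoters of 3 chaperone genes with an ERSE are shown for contrast, of which Creld2 was past 2-fold, Hspa5 was nearly level and Canx was lower. Capitals mark the fixed letters of the ERSE, on either strand.
Creld2, chr15:88819446-88819645, plus strand, ERSE 126 to 108 bases before the start: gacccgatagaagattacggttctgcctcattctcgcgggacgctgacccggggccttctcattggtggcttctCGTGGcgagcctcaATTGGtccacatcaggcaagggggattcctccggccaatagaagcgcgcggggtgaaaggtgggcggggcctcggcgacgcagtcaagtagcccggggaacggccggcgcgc
Hspa5, chr2:34771890-34772089, plus strand, ERSE 65 to 47 bases before the start: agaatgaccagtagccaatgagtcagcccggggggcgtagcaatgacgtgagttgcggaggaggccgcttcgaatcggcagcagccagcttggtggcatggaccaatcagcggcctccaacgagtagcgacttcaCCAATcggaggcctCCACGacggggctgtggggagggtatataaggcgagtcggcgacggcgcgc
Canx, chr11:50325674-50325873, minus strand, ERSE 145 to 127 bases before the start: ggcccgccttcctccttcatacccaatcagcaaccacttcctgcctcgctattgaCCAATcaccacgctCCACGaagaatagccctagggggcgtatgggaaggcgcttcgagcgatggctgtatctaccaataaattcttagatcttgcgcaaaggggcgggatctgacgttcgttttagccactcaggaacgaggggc

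Other genes of these pathways were read from lists outside the 31, to see how far the pattern reached. Few genes on the ER side were past 2-fold. Of 22 further ER folding and unfolded protein response genes none was at least 2-fold higher and 2 were lower, the isomerases P4hb at -1.32 and Pdia5 at -1.09, with a median of -0.21. The 2 of 22 lower genes lie near the share of all genes. Among 15 further genes of ER-associated degradation none was higher and 1 lower, Vcp at -1.06, an ATPase named after its value was seen, whose 4 probes ran from -1.48 to 0.23, with a median of -0.30. The 19 genes of the translocon and of glycosylation had a median of -0.21, none higher and 1 lower, Dad1 at -1.07, whose other probe was nearly level at -0.05.

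On the same arrays 2 genes of these ER lists were above background in the 5/6 nephrectomized sample only. They are named for this pattern of detection, so a higher signal there follows from the choice. Over the whole array 17711 genes were above background on at least 1 array and 15680 on both. Derl3, a degradation factor abundant in secretory cells, read 1988 on the 5/6 nephrectomized array and 10.9 on the sham array, at least 126-fold higher there. Bhlha15, the secretory cell factor MIST1, read 482.5 on the 5/6 nephrectomized array and 3.43 on the sham array, at least 30.5-fold higher. The plasma cell markers Jchain, Mzb1, Pou2af1 and Tnfrsf17 had the same pattern of detection, and their part in these values was not tested. A bound of this kind sets the bright value against a floor on the sham array, which is the dimmest signal still well above background there or the probe's own signal if that is brighter.

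The integrated stress response side was mixed beyond the 9 targets. Of 20 other ATF4 targets measured, 5 were at least 2-fold higher and 4 lower, and their median of -0.09 was that of all genes to within 0.03. Both counts lie above the shares of all measured genes, 12.3% higher and 10.9% lower. Stc2, a secreted glycoprotein, differed by 2.97 (intensities of 320.4 on the 5/6 nephrectomized array and 33.0 on the sham array), and Slc7a5, a transporter of large neutral amino acids, by 1.79. Slc7a11, the cystine transporter that is also driven by Nrf2, differed by -2.99, with intensities of 781.0 on the 5/6 nephrectomized array and 5013 on the sham array. The other 2-fold genes, named after their values were seen, were Aldh1l2 at 1.73, Vldlr at 1.61 and Aldh18a1 at 1.08, and below 0 Ddit4, Slc38a2 and Gpt2, each at -1.03, although the other probe of Slc38a2 was at 0.37. So a higher median was seen in the 9 ATF4 targets and was not seen in this longer list.

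The aminoacyl-tRNA synthetases and the genes around eIF2 gave few 2-fold genes, where 12.3% of all measured genes were at least 2-fold higher and 10.9% lower. Among 18 aminoacyl-tRNA synthetases, which ATF4 also controls, the median was 0.01 and 1 was at least 2-fold higher, Wars at 1.21, which is also induced by interferon. Of 13 genes of the other eIF2 kinases, eIF2 and its exchange factor eIF2B, 1 was at least 2-fold higher, Eif2ak2, the interferon-induced kinase PKR that senses double-stranded RNA, with intensities of 2752 on the 5/6 nephrectomized array and 398.1 on the sham array and a difference of 2.48. The amino acid sensor Eif2ak4, which encodes GCN2, and the heme-regulated Eif2ak1 differed by -0.53 and -0.43, and these were named after their values were seen. The probes of Eif2ak4 ran from -0.53 to 0.16. PKR was thus the eIF2 kinase whose transcript was past 2-fold, at its 1 measured probe. PERK, GCN2 and the heme-regulated kinase were below 0 at their brightest probes, as were 8893 of 15680 genes. The other probe of PERK was at 0.05. The part of any of these kinases in the ATF4 target values was not tested.

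Among 9 other one-carbon genes 1 was at least 2-fold higher and 2 were lower. Over all measured genes the shares were 12.3% higher and 10.9% lower. The median of these 9 genes was -0.47, with Mthfd1, the cytosolic counterpart of Mthfd2, at -1.16 and Mthfd2l, its mitochondrial paralog, at -2.44. The other probe of Mthfd1 was at -0.34 and that of Mthfd2l at -1.47. The higher signal of Mthfd2 was therefore not shared by its paralogs. Of 8 genes of cell death linked to the unfolded protein response, 7 were above 0, against 43.3% of all measured genes, and the median was 0.55, led by Pmaip1, the BH3-only protein NOXA, at 1.75 and Casp12 at 1.28. Among 12 cytosolic heat shock genes the median was 0.06, with the near-identical pair Hspa1a and Hspa1b, which their probes may not separate, at 1.45 and 1.57, and Bag3, a co-chaperone of Hsp70, 2.82-fold lower. Hsph1, named after its value was seen, was at -1.24. Of these 12 genes 2 were at least 2-fold higher and 2 lower, which is above the shares of all measured genes. The 8 mitochondrial chaperones and proteases had a median of -0.20 and none was 2-fold apart.

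**Figure D4:**
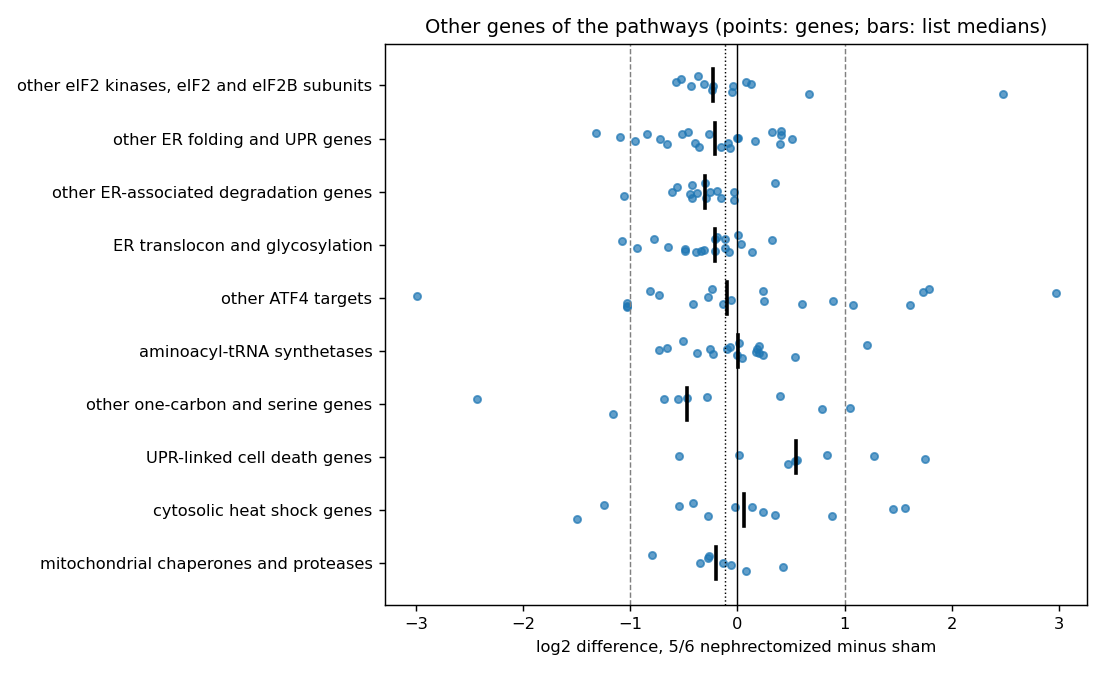
Log2 difference (x axis, 5/6 nephrectomized minus sham) of the measured genes in 10 further lists of these pathways, with a point for each gene, a bar for each list median, dashed lines at 2-fold and a dotted line at the median of all genes. The lists of the ER cluster between -1.32 and 0.51 with medians from -0.30 to -0.21, the other ATF4 targets spread from -2.99 to 2.97, and the cell death list has the highest median at 0.55.

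The settings that treat genes unequally are those that can move the gap between the medians of ATF4 targets and ER chaperones, 1.23 in the main values. It was 1.145 with normexp, 1.23 both with quantile normalization and with the authors' value table, 1.01 when the probes of each gene were averaged, and 1.03 with Ddit3, Atf5 and Nupr1 added to the ATF4 targets. The other scalings shift every gene alike and cannot change it, and the filters on dim probes left it as it was. Relative to the median of all genes, the ATF4 targets were 1.07 higher and the chaperones 0.16 lower in the main values.

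**Figure D5:**
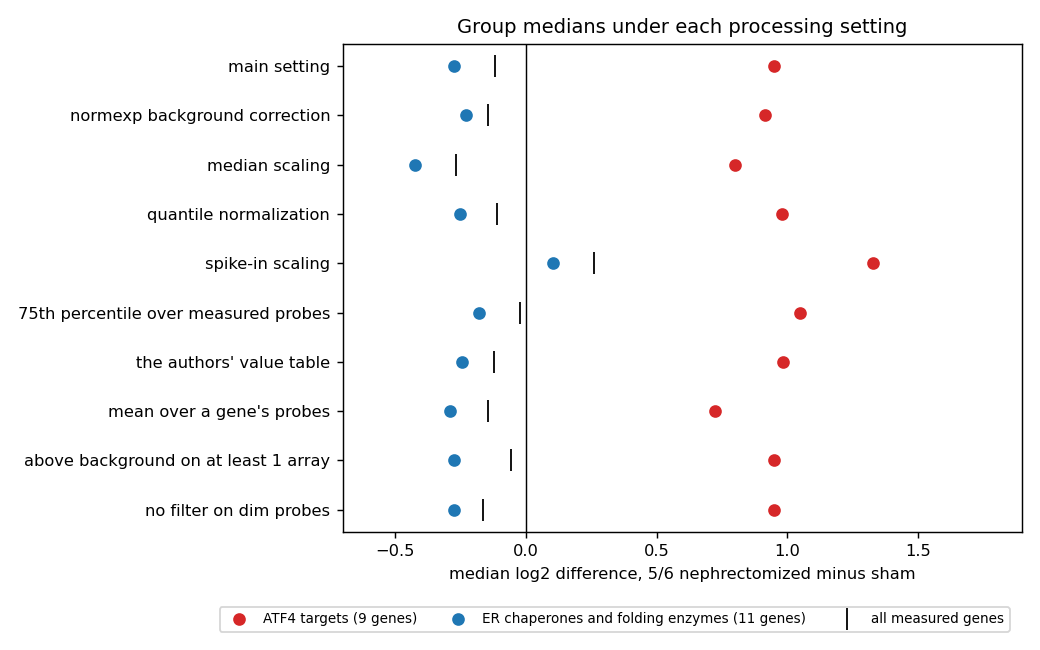
Median log2 difference (x axis, 5/6 nephrectomized minus sham) of the 9 ATF4 targets, the 11 ER chaperones and folding enzymes, and all measured genes (ticks) under the main setting and 9 alternatives (rows). The points shift together with the scaling, to 1.33 for the ATF4 targets and 0.10 for the chaperones with spike-in scaling, a shift that leaves the gap between the groups unchanged by construction, while averaging the probes of a gene narrows the gap to 1.01.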

How the data were processed

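Total RNA was amplified, labelled with Cy3 and hybridised to 1-colour Agilent arrays, 1 per group, per the labels' protocols. The deposited scanner files hold the processed intensity of each spot, made with spatial and multiplicative detrending within the array switched on, per the file headers, by Agilent Feature Extraction (9.5.1.1 in the submitters' processing notes, 10.7.1.1 in the file header) and not scaled between arrays. The authors also deposited a table of normalized linear intensity values, made by a method that the sources used here do not give, which served as an alternative. Flags of the software, deposited as other values of 0 or 1, gave the spots well above background and the outlier spots (47 on the 5/6 nephrectomized array and 41 on the sham array), which were left out. No spot was saturated.

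Each processed intensity was divided by the 75th percentile of the non-control spots on its array before log2 was taken. That percentile was an intensity of 547.5 on the 5/6 nephrectomized array and 442.1 on the sham array. Spots of a probe were averaged. A gene, by its name in the files, was represented by its brightest probe well above background on both arrays, and names were looked up in a RefSeq table of GRCm38.p6. Of the 57 probes of the 31 genes, 54 were measured on both arrays, and 18 genes had several measured probes, which in 6 of these genes pointed both ways. Positions of probes were taken as deposited, on mm9, where exon and UTR annotation was not used here. Intensities in the text are unscaled. Counts use a 2-fold difference. Calculations used limma 3.58.1 in R 4.3.3, Python 3.11.15 and pandas 2.3.3, and the steps were tested on simulated data.

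The genes, their role groups and the other lists were chosen with earlier results of these data known. The text names all 31 genes and, from each further list, up to 3 genes with the largest difference among those at least 2-fold apart with all measured probes on one side, and says where others are named. A further gene that this rule names is not reported here. Marker lists were read for 8 cell types. Those of B cells, neutrophils, conventional dendritic cells and red pulp macrophages had medians of 0.68 (5 of 8 markers measured), 1.34 (6 of 8), 2.50 (4 of 7) and 0.26 (5 of 6). Single markers ran against these medians, with Mmp8 of the neutrophil list at -3.97, Clec10a of the dendritic cell list at -4.12, and Slc40a1 and C1qa of the macrophage list at -2.58 and -2.24. Summed intensities were 2585 on the 5/6 nephrectomized array and 1228 on the sham array for B cells, 15987 on the 5/6 nephrectomized array and 14074 on the sham array for neutrophils, and 97255 on the 5/6 nephrectomized array and 44070 on the sham array for red pulp macrophages. For conventional dendritic cells the sum was 3951 on the 5/6 nephrectomized array and 22574 on the sham array. The number of arrays limits the precision.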

Additional observations from a re-analysis of the deposited data

How the results depend on the processing

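The processing was varied in 9 ways, in background correction, scaling, source of the values, choice of probe and filter on dim probes. No value that was past 2-fold changed sign. The number of genes at least 2-fold apart ran from 6 to 9 against 7 in the main values. The count of lower genes was 0 with spike-in scaling, in place of 1. The median of the chaperones was -0.42 with median scaling, 0.10 with spike-in scaling and -0.18 with the 75th percentile over measured probes. In the same order the median of the ATF4 targets was 0.80, 1.33 and 1.05, and it was 0.72 when all probes of a gene were averaged and 0.76 with Ddit3, Atf5 and Nupr1 added. These shifts with the scaling follow from its construction, since it moves every gene alike. The gap between the medians was 1.15 with normexp, 1.01 with the mean over probes and 1.03 with the 3 genes added, and the cause was not tested. With normexp 7.42% of all genes were at least 2-fold higher, against 12.3% in the main values, and with spike-in scaling 19.9% were higher and 5.86% lower. Without a filter on dim probes 24776 genes were compared, of which 3690 were at least 2-fold higher and 2689 lower, against 1929 and 1716 of 15680 in the main values. No paired analysis was possible because each group has 1 sample, and for the same reason no replicate could be left out.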
